A study of Homo sapiens with 3 samples.

Results

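The zinc finger genes of human chromosome band 19p12, with a few at its border with 19p13.1, form a tandem array that is rich in genes particular to primates. The array was represented by 34 gene symbols chosen by name and location and not by any measured value, though with earlier results of these data known. Of these, 33 were found among the 19049 genes of the deposited expression table, and the expression of ZNF66 was not analysed here. RNA had been sequenced from MDA-MB-231, an established human breast cancer line of basal-like, mesenchymal character. The cells carried a short hairpin RNA against KAP1 and re-expressed KAP1 in 1 of 3 forms: S473D, in which a serine is replaced by aspartate, S473A, in which the same serine is replaced by alanine, or wild type (wt). Aspartate carries a negative charge in the place where a phosphate can sit, and alanine cannot be phosphorylated. All 3 groups share the cell line and the hairpin, and no library of the undepleted line or of cells without re-expressed KAP1 was analysed here.

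Most genes of the array encode KRAB zinc finger proteins, which read DNA with a row of C2H2 fingers and carry a KRAB domain at the amino end. The KRAB domain binds KAP1, the product of TRIM28, which in turn brings the histone methyltransferase SETDB1 and heterochromatin protein 1 to the bound site. The best known targets are retroelements: ZNF91 represses SVA elements and ZNF93 represses LINE-1 elements. KRAB zinc finger genes are also themselves covered by KAP1 and its histone mark in many cell types. The comparisons ask whether the transcripts of KAP1's own partners differ with its form.

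Each form of KAP1 gave 1 library, so no difference could be set against a spread between replicates, no test was possible and no p-value is given. The library and the form of KAP1 cannot be told apart. Levels are RPKM, read numbers scaled to gene length and library depth, and differences are log2(RPKM + 1) of the first-named library minus that of the second. Depth estimated from the steps between low values was 23500000 reads for S473D, 28900000 for S473A and 25300000 for wt. TRIM28 stood at 25.6 RPKM in S473D, 32.3 RPKM in S473A and 28.7 RPKM in wt, and these values do not separate the hairpin-targeted transcript from the re-expressed one. VIM, a mesenchymal marker of this line, stood at 673 RPKM in S473D, 740 RPKM in S473A and 738 RPKM in wt, while the leukocyte marker PTPRC was at 0, 0 and 0.0264 RPKM in the same order and the monocyte marker CD14 at 0.0812 to 0.175 RPKM. CD44, AXL, CAV1, MSN, FOSL1 and S100A4, listed with it, were at 12.5 RPKM or more in every library, and SPARC, also listed, was at 0.128 to 0.208 RPKM. Of the luminal markers ESR1, PGR, CDH1, EPCAM and ERBB3 were at or under 0.665 RPKM, GATA3 and FOXA1 at 1.41 to 1.96 RPKM, and KRT18 at 169 to 188 RPKM. In these bulk samples, fewer cells with a transcript and less of it per cell cannot be told apart.

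The genes of the array were expressed at a low level. Above 0.5 RPKM stood 23 of the 33 members in S473D, 22 in S473A and 22 in wt. The same 22 were above it in every library, and 10 were above it in none. The gene that crossed the line was ZNF737, with 0.577 RPKM in S473D, 0.424 RPKM in S473A and 0.433 RPKM in wt. Nearest to the line on its upper side by mean level were ZNF738, ZNF682 and ZNF493, and on its lower side ZNF737 and ZNF492. Above 1 RPKM there were 18 members in each library, and none passed 5 RPKM. The median over the 33 members was 1.28 RPKM in S473D, 1.22 RPKM in S473A and 1.26 RPKM in wt. Among the 11570 genes compared, those whose mean over the libraries reached 1 RPKM, the medians were 9.39 RPKM in S473D, 10.1 RPKM in S473A and 10.1 RPKM in wt, but lower genes are left out of that set.

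The highest member was ZNF486, at 4.54 RPKM in S473D, 4.58 RPKM in S473A and 4.41 RPKM in wt. Its 3 values lay within 1.04-fold of each other. ZNF675, also known as TIZ for its inhibition of TRAF6 signalling, followed with 3.38 RPKM in S473D, 3.43 RPKM in S473A and 3.71 RPKM in wt. ZNF101 stood at 3.02 RPKM in S473D, 2.68 RPKM in S473A and 3.37 RPKM in wt. The SVA repressor gene ZNF91 had 2.63 RPKM in S473D, 2.57 RPKM in S473A and 2.59 RPKM in wt, a nearly flat profile. The LINE-1 repressor gene ZNF93 had 2.68 RPKM in S473D, 2.36 RPKM in S473A and 2.50 RPKM in wt. Both genes were thus transcribed in every library, and their counting intervals for S473D over wt, 0.871 to 1.18 for ZNF91 and 0.864 to 1.34 for ZNF93, included 1. The remaining members with a mean of 1 to 5 RPKM were ZNF14, ZNF506, ZNF253, ZNF90, ZNF626, ZNF85, ZNF430, ZNF714, ZNF431, ZNF708, ZNF100, ZNF43 and ZNF254. Their values ran between 1.04 RPKM, for ZNF708 in S473D, and 3.81 RPKM, for ZNF626 in S473D.

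The mean of 4 members lay at 0.5 to 1 RPKM. ZNF681 stood at 0.780 RPKM in S473D, 0.999 RPKM in S473A and 0.923 RPKM in wt, ZNF682 at 0.813, 0.565 and 0.648 RPKM, ZNF738 at 0.614, 0.683 and 0.673 RPKM, and ZNF493 at 0.735, 0.730 and 0.585 RPKM, in the same order of libraries. A further 11 members had a mean under 0.5 RPKM, namely ZNF737, ZNF492, ZNF726, ZNF429, ZNF98, ZNF208, ZNF257, ZNF676, ZNF99, ZNF730 and ZNF728. ZNF728 was listed at 0 in all 3 libraries, and a count of 0 allows up to 0.0634 RPKM in S473D, 0.0515 RPKM in S473A and 0.0588 RPKM in wt. These limits take 3 reads and the estimated depth, and cover counting error only. ZNF730 was at 0 in S473D, 0.0174 RPKM in S473A and 0.0177 RPKM in wt, about 1 read each in S473A and wt.

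**Figure D1:**
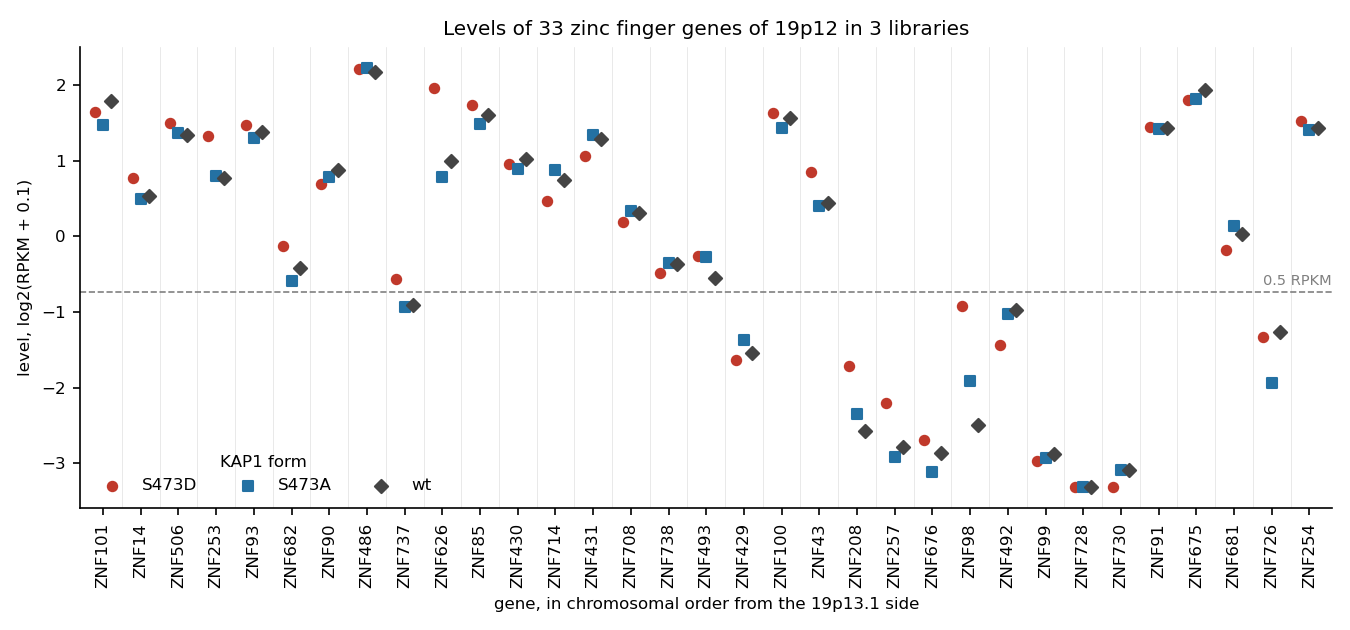
Level of each of 33 members on log2(RPKM + 0.1), the deposited scale, in chromosomal order from the 19p13.1 side. Circles are the S473D library, squares S473A and diamonds wt, and the dashed line is 0.5 RPKM. The 22 genes above the line in every library lie at both ends of the array, ZNF486 at 4.41 to 4.58 RPKM is the highest, and the genes from ZNF208 to ZNF730 are all under the line, with ZNF728 at 0 in all 3.

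The promoters of the array share a sequence. RefSeq promoters on GRCh38.p14, taken from 250 bases before to 50 bases after the start, were given for 27 of the 34 members, ZNF66 among them. The members without an entry are ZNF98, ZNF99, ZNF253, ZNF506, ZNF676, ZNF728 and ZNF738. The word TCCAATCAGG, which contains the CCAAT box bound by the factor NF-Y, was found on either strand in 25 of these 27 promoters (92.6%), against 106 of 27305 promoters over all genes (0.388%). It occurred in 0 of 31 promoters of the zinc finger cluster at 19q13.41 and in 0 of 45 at 19q13.43. Of all genes with a ZNF symbol that are not members, both clusters included, 33 of 481 held it (6.86%). The word CTGTCACTCA was in 22 of the 27 (81.5%) and in 0.385% of all promoters. Both words were picked after counting every word of 10 letters in these promoters, and the shorter CCAAT alone was in 27 of 27 members and in 35.7% of all promoters. Related genes of a tandem array share ancestry, so the 27 promoters are not independent of each other.

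The promoters of the members with the highest and the lowest S473D minus wt difference show the shared layout, with TCCAATCAGG in capitals and each printed 5′ to 3′ along its gene. ZNF626 lies on the minus strand at chr19:20661522-20661821, and ZNF714 on the plus strand at chr19:21081953-21082252.

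ZNF626: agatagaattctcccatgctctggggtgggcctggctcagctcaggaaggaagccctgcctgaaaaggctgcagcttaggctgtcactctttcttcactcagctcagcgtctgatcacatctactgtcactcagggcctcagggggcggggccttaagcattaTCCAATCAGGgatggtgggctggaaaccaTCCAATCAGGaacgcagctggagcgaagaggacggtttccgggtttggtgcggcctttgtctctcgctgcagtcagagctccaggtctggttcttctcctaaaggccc

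ZNF714: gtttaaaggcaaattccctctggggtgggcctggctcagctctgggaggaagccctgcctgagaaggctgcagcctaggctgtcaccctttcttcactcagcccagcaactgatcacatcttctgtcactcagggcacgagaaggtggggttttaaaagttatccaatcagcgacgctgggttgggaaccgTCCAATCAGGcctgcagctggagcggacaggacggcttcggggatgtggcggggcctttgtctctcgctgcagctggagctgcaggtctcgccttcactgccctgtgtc

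The capital word occurs at 2 places in ZNF626 and at 1 place in ZNF714, and both genes also hold CTGTCACTCA further upstream. Windows of 50 bases around the copy nearest the start let the best and the least expressed carriers be read side by side. The windows are those of ZNF486 on the plus strand at chr19:20167136-20167185, ZNF675 on the minus strand at chr19:23687207-23687256, ZNF208 on the minus strand at chr19:22010968-22011017 and ZNF730 on the plus strand at chr19:23116952-23117001.

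ZNF486: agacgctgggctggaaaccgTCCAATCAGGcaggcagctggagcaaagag

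ZNF675: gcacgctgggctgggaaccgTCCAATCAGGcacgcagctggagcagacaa

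ZNF208: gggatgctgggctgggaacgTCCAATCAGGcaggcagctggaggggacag

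ZNF730: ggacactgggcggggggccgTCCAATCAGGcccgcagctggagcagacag

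The same word stood in the promoter of ZNF486, the highest member, and in that of ZNF730, which was at or near 0. All 31 copies in the members read in the direction of the gene, between 88 and 24 bases before the start (positions -88 to -24, median -58). There were 19 genes with 1 copy and 6 with 2 copies, and ZNF257 and ZNF493 held none. CTGTCACTCA began at positions -130 to -69, with a median of -125. A match describes letters in this window and does not show that a factor binds there.

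**Figure D2:**
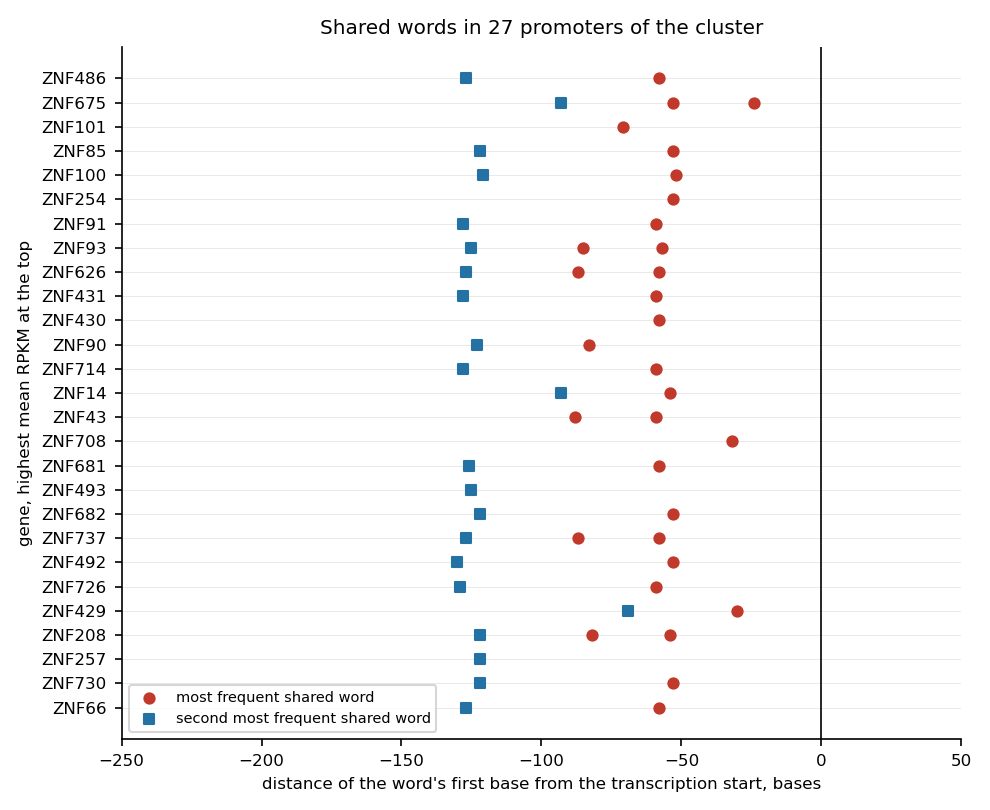
Start of each copy of the 2 shared words in 27 promoters, as distance in bases from the transcription start at 0, with genes ordered from the highest to the lowest mean RPKM and ZNF66, which has no level, last. Circles mark the most frequent word, with a median position of -58, and squares the second, with a median of -125, in genes of high and of low level alike.

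Of the 18 members compared, ZNF626 was the furthest apart in S473D against wt. ZNF626, which codes for a C2H2 zinc finger protein, had 3.81 RPKM in S473D and 1.89 RPKM in wt, a 2.02-fold ratio with an exact 95% counting interval of 1.74 to 2.34. On log2(RPKM + 1) it was 0.74 higher, and it was the only member at least 1.5-fold apart on that scale. That is 1 of the 18 members with a mean of at least 1 RPKM, while 6.83% of all genes compared were at least 1.5-fold higher, 3.23% at least 1.5-fold lower and 10.1% at least 1.5-fold apart. The count is near these shares and does not set the members apart. None of the 18 was 2-fold apart on that scale, as were 1.09% of all genes. The added 1 RPKM shrinks differences most at low levels, so a member needs a larger RPKM ratio to be called than a highly expressed gene. With 0.1 RPKM added in place of 1, 1 of the 18 was still 1.5-fold apart, against 937 genes higher and 793 lower of 11570. The counting intervals rest on estimated reads, 534 in S473D and 285 in wt for ZNF626, and cover counting error only.

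Next came ZNF253, with 2.41 RPKM in S473D and 1.61 RPKM in wt, 0.38 higher on log2(RPKM + 1) with an RPKM ratio of 1.49 (1.19 to 1.86). ZNF43 had 1.70 RPKM in S473D and 1.26 RPKM in wt, a difference of 0.26 and a ratio of 1.35 (1.10 to 1.65). ZNF14 (0.15) and ZNF506 (0.12) completed the 5 highest differences, and their counting intervals included 1. At the other end stood ZNF714, with 1.28 RPKM in S473D and 1.58 RPKM in wt, a difference of -0.18 and a ratio of 0.808 (0.671 to 0.973). ZNF431 had 1.99 RPKM in S473D and 2.33 RPKM in wt, a difference of -0.16 and a ratio of 0.853 (0.768 to 0.947). ZNF90 (-0.13), ZNF101 (-0.12) and ZNF675 (-0.10) followed, with intervals that included 1. In all, the interval lay above 1 for 3 of the 18 members and below 1 for 2, against 26.8% and 45.4% of the genes compared that have a transcript length. Counting intervals narrow with read number, and most genes compared had higher levels than the members. The shares are thus not matched for read number, here and in the comparisons below.

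Of the 18 members, 11 were higher in S473D than in wt and 7 lower, where 39.3% of all genes compared were higher. The members' median difference was 0.04, against -0.10 over all genes compared. Centring the differences on the median of all genes gave a members' median of 0.14 with 13 higher, and scaling by a trimmed mean of log ratios gave 0.13 with 12 higher. Of the 11570 genes compared, 5785 were higher when centred and 5710 under the trimmed-mean scaling. Removal of the trends on transcript length and GC content turned the median to -0.16 with 3 higher, against -0.10 over all genes with 3705 of 10780 higher. The sign of the array's median difference is therefore not fixed by these data. Under the same removal ZNF626 kept 0.68, while ZNF253 was at 0.14 and ZNF43 at 0.16, and ZNF14 (-0.04) and ZNF506 (-0.43) turned negative.

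**Figure D3:**
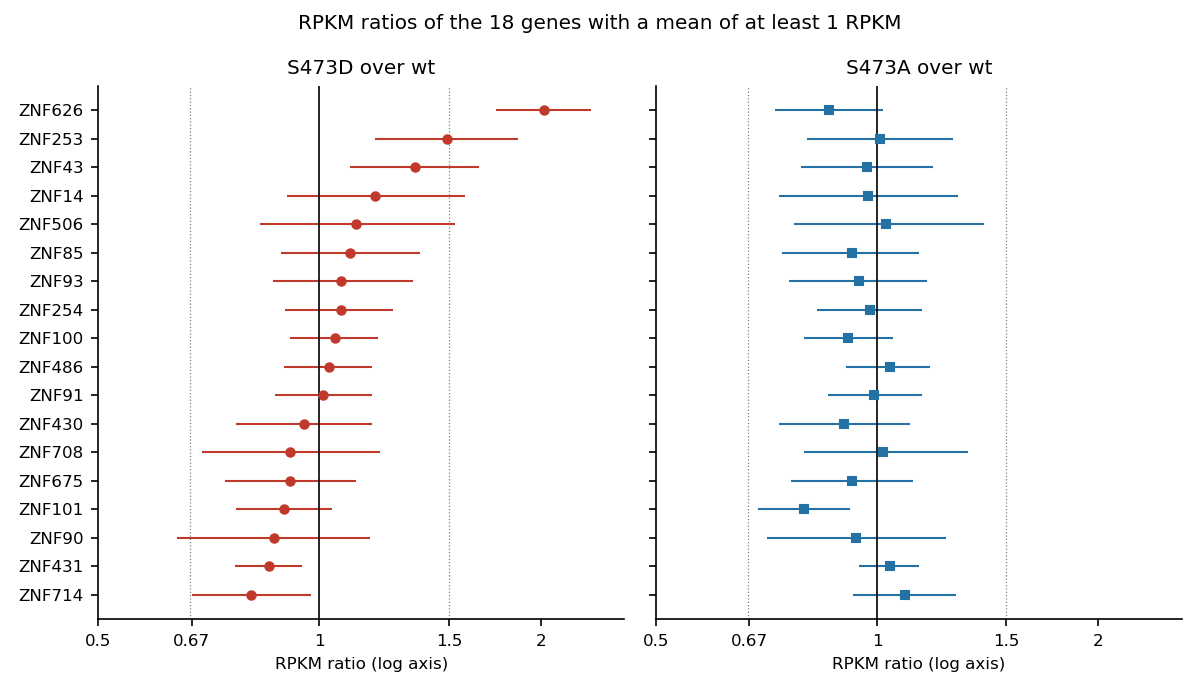
RPKM ratio of each of the 18 members compared, on a log axis, for S473D over wt on the left and S473A over wt on the right. Bars are the exact 95% counting interval, which covers counting error only, and dotted lines mark 1.5-fold in each direction. ZNF626 stands at 2.02 for S473D and at 0.860 for S473A. The members' median difference is 0.04 for S473D minus wt and turns to -0.16 with length and GC trends removed.

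In S473A against wt the array was nearly flat, and so were all genes compared. The quartiles of the differences were -0.09 and 0.02 for the members and -0.05 and 0.05 over all genes. None of the 18 members was 1.5-fold apart. Of all genes compared 0.0951% were at least 1.5-fold higher, 0.242% at least 1.5-fold apart and 0.0173% at least 2-fold apart. With shares this low, the absence of a call among 18 members does not set them apart. The differences ran from -0.25 to 0.08, with 6 members higher and 12 lower, while 49.8% of all genes compared were higher. The members' median was -0.03, against -0.00 over all genes. The lowest was ZNF101, with 2.68 RPKM in S473A and 3.37 RPKM in wt, a ratio of 0.796 (0.688 to 0.920). It was the only member whose counting interval left out 1, as it did above 1 for 7.39% and below 1 for 7.73% of all genes with a transcript length. ZNF626 had 1.63 RPKM in S473A and 1.89 RPKM in wt, a difference of -0.14 and a ratio of 0.860 (0.727 to 1.02). ZNF100 (-0.10), ZNF430 (-0.10) and ZNF675 (-0.09) followed. At the upper end were ZNF714 (0.08), ZNF486 (0.04), ZNF431 (0.04), ZNF506 (0.03) and ZNF708 (0.02), all within counting error.

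In S473D against S473A, ZNF626 was again the member furthest apart, with 3.81 RPKM in S473D and 1.63 RPKM in S473A, a difference of 0.87 and a ratio of 2.35 (2.03 to 2.72). It was the 1 member of 18 at least 1.5-fold apart, where 6.86% of all genes compared were that much higher, 9.86% that much apart in either direction and 1.13% at least 2-fold apart. This comparison shares its S473D library with the one against wt, so the comparisons are not independent. ZNF253 had 2.41 RPKM in S473D and 1.64 RPKM in S473A, a difference of 0.37 and a ratio of 1.47 (1.19 to 1.82). ZNF43 had 1.70 RPKM in S473D and 1.22 RPKM in S473A, a difference of 0.28 and a ratio of 1.39 (1.14 to 1.69). ZNF85 (0.19) and ZNF14 (0.18) came after them, with intervals that included 1, and were at -0.22 and -0.03 with length and GC trends removed. The lowest was ZNF714, with 1.28 RPKM in S473D and 1.73 RPKM in S473A, a difference of -0.26 and a ratio of 0.741 (0.620 to 0.884). For ZNF431, with 1.99 RPKM in S473D and 2.42 RPKM in S473A, the difference was -0.20 and the ratio 0.821 (0.742 to 0.907). ZNF708 (-0.09), ZNF90 (-0.07) and ZNF675 (-0.02) followed, and centring on the median of all genes put these 3 at 0.02, 0.03 and 0.09. Of the 18 members, 12 were higher in S473D, against 39.3% of all genes, and the members' median of 0.09 turned to -0.13 with the length and GC trends removed. The counting interval was above 1 for 3 members and below 1 for 2, against 27.3% and 46.0% of the genes with a transcript length. These shares too are not matched for read number.

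Some members stepped in 1 direction across the 3 forms. The level was lowest in S473A, intermediate in wt and highest in S473D for 8 of the 18, where 18.3% of all genes compared had this order. They were ZNF14, ZNF93, ZNF626, ZNF85, ZNF100, ZNF43, ZNF91 and ZNF254, and the 3 values of ZNF91 lay within 1.02-fold of each other. With length and GC trends removed, ZNF626 (0.68) and ZNF43 (0.16) stayed above wt in S473D, and the other 6 lost this order, with S473D minus wt between -0.30 for ZNF85 and -0.04 for ZNF14. The opposite order, lowest in S473D and highest in S473A, was found for ZNF714, ZNF431 and ZNF708, 3 of 18 against 28.8% of all genes. Those 3 genes are consecutive in the array. The centring and the trimmed-mean scaling move ZNF708 between -0.01 and 0.03 for S473D minus wt, and its counting intervals include 1 in all 3 comparisons.

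**Figure D4:**
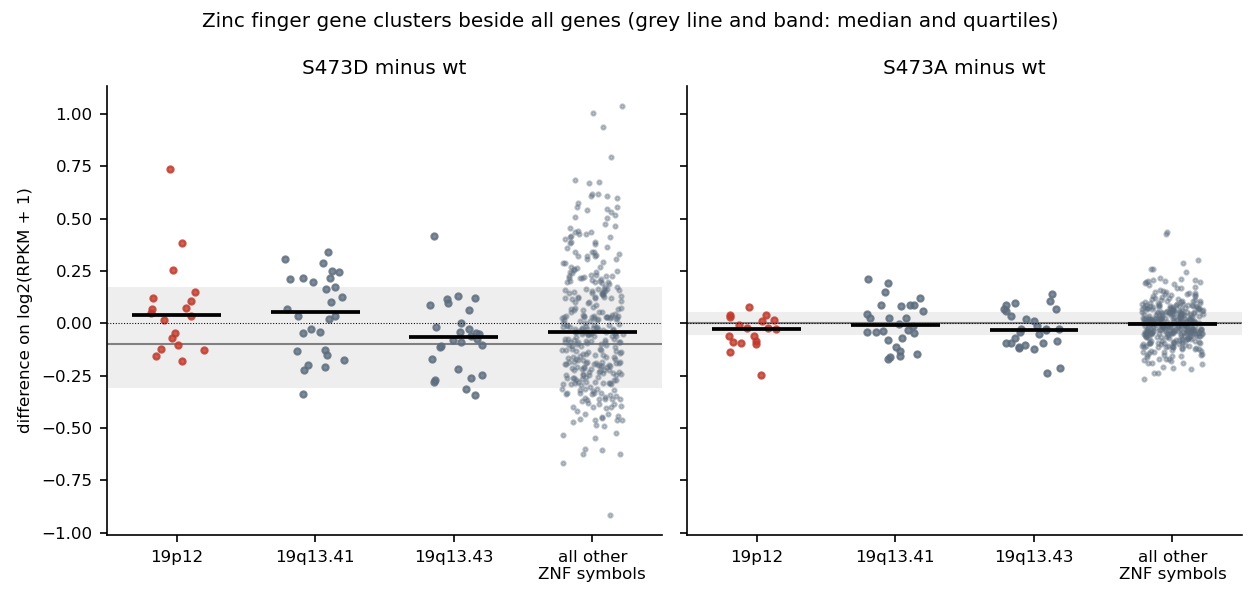
Difference on log2(RPKM + 1) of each compared zinc finger gene, for S473D minus wt on the left and S473A minus wt on the right, by cluster. The group of all other ZNF symbols also holds the genes of 19q13.41 and 19q13.43. Black bars are the medians of the clusters, and the grey line and band are the median and quartiles of all genes compared. The 19p12 members' S473D minus wt median of 0.04 lies near that of 19q13.41 (0.05) and above that of 19q13.43 (-0.07), but becomes -0.16 with length and GC trends removed; the 19q13.41 median also changes sign then, to -0.03, and that of 19q13.43 with centring, to 0.03.

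In the poorly expressed stretch from ZNF208 to ZNF730, ZNF208, ZNF257, ZNF676 and ZNF98 had their highest values in S473D. ZNF492, ZNF99 and ZNF730 were lowest in S473D, and ZNF728 was at 0 in every library. ZNF98 had 0.429 RPKM in S473D, 0.166 RPKM in S473A and 0.0771 RPKM in wt, with about 24, 11 and 5 estimated reads. ZNF208, whose locus carries variants associated with telomere length, had 0.204 RPKM in S473D, 0.0962 RPKM in S473A and 0.0671 RPKM in wt, with about 19, 11 and 7 reads. ZNF257 had 0.116 RPKM in S473D, 0.0321 RPKM in S473A and 0.0445 RPKM in wt, with about 11, 4 and 4 reads. The ratios of S473D to wt were 5.57 (1.93 to 17.3) for ZNF98, 3.04 (1.18 to 8.23) for ZNF208 and 2.61 (0.877 to 12.7) for ZNF257. They are 3 of 7 members with a mean of 0.05 to 0.5 RPKM, a class set after the values were seen, and 12.1% of the 2688 genes in that class had a ratio of at least 2. In S473A over wt 1 of the 7 had such a ratio, ZNF98 at 2.15 (0.617 to 7.07), against 9.04% of genes. In S473D over S473A there were 3, against 11.5%. ZNF257, which is in both counts of 3, reached the class only through its S473D value, since its S473A and wt values were under 0.05 RPKM. ZNF676, between ZNF257 and ZNF98 in the array, had 0.0550 RPKM in S473D, 0.0154 RPKM in S473A and 0.0367 RPKM in wt, about 4, 1 and 3 reads.

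The ZNF98 values are uncertain, because its transcript shares 54.1% of its 50-letter words with that of its neighbour ZNF492. Reads that lie wholly within such stretches cannot be assigned to 1 of the genes by sequence. The sources used here do not give read length or counting rule, so the number of such reads is not known. ZNF492 was lowest in S473D, with 0.269 RPKM in S473D, 0.392 RPKM in S473A and 0.410 RPKM in wt. Summed, the pair had about 50 reads in S473D, 59 in S473A and 49 in wt, and the ratio of S473D to wt was 1.12 (0.726 to 1.66). The remaining low members were ZNF429, with 0.223, 0.285 and 0.242 RPKM in S473D, S473A and wt, ZNF726, with 0.298, 0.161 and 0.315 RPKM, and ZNF99, with 0.0273, 0.0312 and 0.0363 RPKM. No order of the forms can be read from these at this depth.

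Position along the array did not set off the higher members as 1 block. ZNF626 sits between ZNF737, which was 0.14 higher in S473D than in wt, and ZNF85, which was 0.11 higher, though ZNF85 is at -0.30 with length and GC trends removed. Across ZNF737 lies ZNF826P, a transcribed pseudogene that is not a member and was picked after its values were seen. It had 6.02 RPKM in S473D, 3.82 RPKM in S473A and 3.96 RPKM in wt, 0.50 higher in S473D than in wt. Other non-members lie inside the array. RPSAP58, between ZNF681 and ZNF726, had 781 RPKM in S473D, 378 RPKM in S473A and 387 RPKM in wt, 1.01 higher in S473D than in wt. How much of its sequence other transcripts share was not measured here, so its reads may not all come from this locus. The S473D minus wt difference was 0.15 for ZNF724P, -0.01 for LINC00663 and -0.02 for ZNF729. ZNF626 shares 0.5% of its 50-letter words with ZNF826P and 1.1% with ZNF737, and 7.8% with any other transcript. ZNF253 and ZNF43, the next highest members, lie elsewhere in the array.

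The members also share transcript properties that the choice did not use. The number of fingers, counted as the C2H2 pattern with 12 residues between the inner cysteine and histidine in the longest reading frame, ran from 0 in ZNF738 to 36 in ZNF208, with a median of 13. ZNF91 had 31, ZNF626 had 10 and ZNF486 had 9. The share of 50-letter words found in another transcript ran from 0.0% to 58.1%, with a median of 5.4%, and 15 members were under 5%. The median GC content of the 18 members compared was 37.4%, against 48.4% for all genes compared, and their median transcript length was 3964 bases against 3240. With the genes split by GC content into 5 classes of equal size, 17 of the 18 lay in the lowest class, 31.8% to 41.1%.

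GC content and length moved with the S473D values of all genes. In that lowest class of GC content the median S473D minus wt difference was 0.02, with 52.8% of genes higher, and in the highest class -0.19, with 26.9% higher. By transcript length the medians ran from 0.25 in the shortest of 5 classes to -0.26 in the longest, which holds ZNF626 with its transcript of 5963 bases. The 11 of 18 members higher in S473D (61.1%) stand beside 52.8% for the class of GC content that holds 17 of them. By length they stand beside lower shares, since 5 members lay in each of the 2 longest classes, where 24% and 16% of genes were higher. The part of GC content and length in the members' differences was not tested further than by the removal of the trends above. For S473A minus wt the medians of all classes lay between -0.01 and 0.01.

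**Figure D5:**
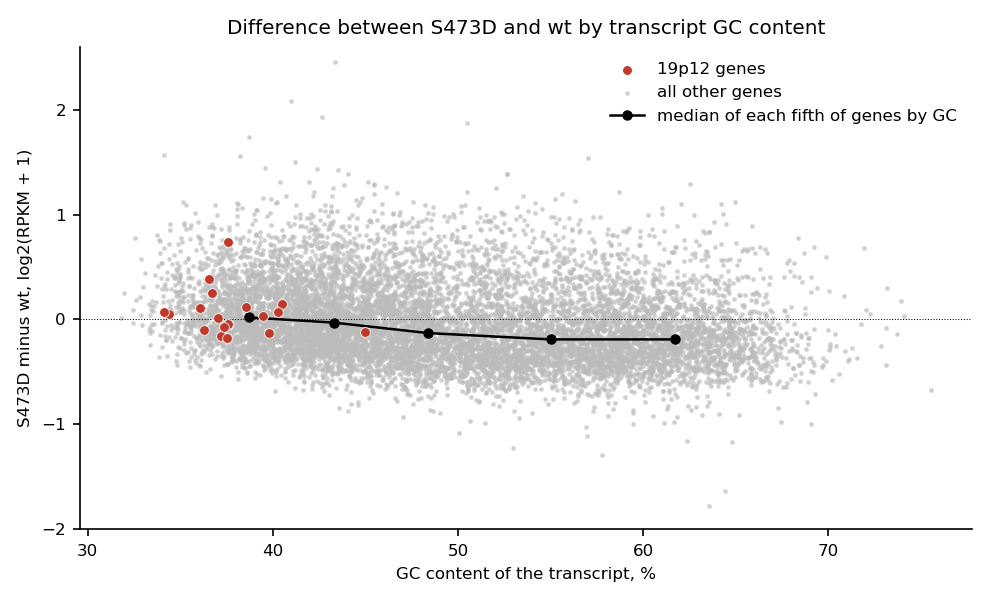
S473D minus wt difference on log2(RPKM + 1) against the GC content of the transcript in percent, with the 18 members in red, all other genes in grey and a black line through the medians of the 5 GC classes. The members lie at low GC content, 17 of 18 below 41.1%, where the median of all genes is 0.02; their own median of 0.04 becomes -0.16 once the trends on GC content and length are removed.

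Other zinc finger clusters of chromosome 19 gave a background of the same gene family. In S473D minus wt the 28 genes compared of 19q13.41 had a median of 0.05 with 17 higher, between ZNF175 (-0.34) and ZNF600 (0.34), and the 28 of 19q13.43 a median of -0.07 with 8 higher, between ZNF587 (-0.34) and ZNF671 (0.42). The 340 compared genes with a ZNF symbol that are not members, both clusters included, had a median of -0.04 with 147 higher. None of these 28 and 28 genes was 1.5-fold apart, against 10.1% of all genes compared. ZNF528 of 19q13.41, under the minimum mean and named after its values were seen, had 1.44 RPKM in S473D, 0.504 RPKM in S473A and 0.577 RPKM in wt, a difference from wt of 0.63. With a pseudocount of 0.1, 1 gene of 19q13.43 was 1.5-fold higher. With the trends removed, the medians were -0.16 for 19p12, -0.03 for 19q13.41 and -0.05 for 19q13.43, and under centring they were 0.14, 0.15 and 0.03. For S473A minus wt the medians were -0.03, -0.01 and -0.03. The 3 clusters thus differed little from each other beside the range within each, and with 1 library per form the differences between clusters were not tested.

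The genes of the silencing machinery that KRAB zinc finger proteins recruit, and the genes flanking the array, were read from lists set down for this purpose. Of 17 machinery genes 4 were higher in S473D than in wt, with a median of -0.31, against 39.3% of all genes higher. The median was -0.21 when centred, and -0.18 with length and GC trends removed, against -0.10 over all genes. CBX3, encoding heterochromatin protein 1 gamma, had 189 RPKM in S473D, 144 RPKM in S473A and 137 RPKM in wt, a difference from wt of 0.46. MORC2, a silencing ATPase of the HUSH pathway, had 6.95 RPKM in S473D, 9.79 RPKM in S473A and 10.1 RPKM in wt, a difference of -0.48. SETDB1, the KAP1-bound methyltransferase, differed by -0.43. None of the 17 was 1.5-fold apart. Of 13 compared genes without zinc fingers that were listed as flanking the array, 3 were higher, with a median of -0.23. Their distance from the array was not measured, so they need not be its direct neighbours. The median was -0.12 when centred, and with the trends removed -0.10, as over all genes. UQCRFS1 and NDUFA13, which encode parts of the respiratory chain, were 0.90 and 0.64 higher in S473D than in wt, and these 2 of the 13 were at least 1.5-fold higher, against 6.83% of all genes compared. With the trends removed, 1 of the 13 was 1.5-fold higher and 1 lower, against 183 and 357 of 10780 genes. CCNE1, encoding cyclin E1, was at -0.43.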

How the data were processed

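RNA was extracted with TRIzol and sequenced after Illumina library preparation, per the labels' protocols. The submitters' processing notes name Bowtie, Partek and hg19. The sources used here do not give versions, annotation, counting rule or read length. Values deposited by the authors are log2 of RPKM plus 0.1, to judge by their lowest value of -3.32, and RPKM was recovered by undoing the log. Of 19076 lines, 27 with a date in place of a symbol or with a repeated symbol were left out. Differences were taken on log2(RPKM + 1) for 11570 genes whose mean reached 1 RPKM, without 178 short RNAs. Depth was estimated from the steps between values of 2730 low genes; 41.9% of low wt values came out whole within 2%, so no count model was fitted. Reads per gene were estimated from GENCODE 29 lengths, available for 93.2% of the genes compared, and exact 95% intervals of RPKM ratios were computed from them. Depth, interval and trend steps were tested on simulated data.

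Trends on length and GC content were removed by lowess (fraction 0.2, 2 rounds). Scaling by a trimmed mean of log ratios left out 30% of ratios and 5% of levels at each end. Promoters came from RefSeq on GRCh38.p14 and were searched on both strands. Members and lists were chosen with earlier results of these data known. The rule named each member's level, the 5 highest and 5 lowest differences per comparison, members past 1.5-fold and members stepping in 1 direction. Each form had 1 library, so calls are of size only. Software was Python 3.11.15 with numpy 2.4.6, pandas 2.3.3, scipy 1.17.1, statsmodels 0.14.6 and matplotlib 3.10.9. Alternatives were pseudocounts of 0.1 and 0.5, minimum means of 0.5 and 5 RPKM, no filter, centring, trimmed-mean scaling, removal of trends, and, chosen after seeing the data, members with under 5% of words shared.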

Additional observations from a re-analysis of the deposited data

How the results depend on the processing

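With the trends on transcript length and GC content removed, the members' median changed sign to -0.16 for S473D minus wt and to -0.13 for S473D minus S473A, with 3 and 4 of 18 members higher. Over all genes 3705 and 3651 of 10780 were then higher. Without a filter on level, 18 of 33 members were higher in S473D minus wt, 12 in S473A minus wt and 20 in S473D minus S473A. Of the 18557 genes without the filter, 7521, 8860 and 7459 were higher in the same order. Among the 9 members with under 5% of 50-letter words shared, an alternative chosen after seeing the data that leaves out ZNF626, the median of S473D minus wt was -0.07, the members higher were 4, 2 and 5 in the same order of comparisons, and 0 were 1.5-fold apart in both S473D comparisons. An interval's arm is the distance, on the log2 scale, from the middle of a counting interval to its end. Among the other 65 values of the array, counts stayed within 1.5 times the reported count. Medians kept their sign and moved by less than the members' median arm. For single members, 397 values counted as unchanged. The minimum mean of 0.5 RPKM, the absence of a filter and the limit on shared words only choose which genes enter. A single member's difference is then the same by construction, and these values are among the 397. Members under 1.5-fold had to move by less than their own arm, and ZNF626 in both S473D comparisons had only to stay past 1.5-fold. A change of sign within the arm counted as unchanged. An example is ZNF14 in S473D minus wt, at 0.15 with the trends kept and -0.04 without them. With a pseudocount of 0.1 ZNF626 moved further than its arm, to 0.98 for S473D minus wt and 1.18 for S473D minus S473A. The 8 values not counted as unchanged were ZNF675 (-0.50 and -0.42), ZNF85 (-0.30 and -0.22), ZNF506 (-0.43 and -0.47) and ZNF254 (-0.18 and -0.16), each without the trends, for S473D minus wt and for S473D minus S473A. ZNF253 was at 0.14 and 0.13 there, against 0.38 and 0.37 with the trends kept. Over all genes, the 790 higher and 374 lower by 1.5-fold in S473D minus wt became 1105 and 128 when centred, 1118 and 139 under trimmed-mean scaling, 937 and 793 with a pseudocount of 0.1, and 183 and 357 without the trends. A minimum mean of 5 RPKM left no member, and the alternative by protein identity was not run. No paired analysis was possible because each form of KAP1 had 1 library. Low levels limit the array: members under 0.5 RPKM rest on at most 48 estimated reads in a library.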
